A study of Rattus norvegicus with 12 samples.

Results

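Calcium handling genes of cardiomyocytes were examined in RNA-seq of left ventricular tissue from male Sprague-Dawley rats. The 12 rats comprised 4 Sham, 4 MI and 4 iCarP+/Light+ animals. The genes were Cacna1c, Ryr2, Jph2, Trdn, Casq2, Hrc, Atp2a2, Pln, Sln and Slc8a1, and all 10 were matched by symbol among the 34599 genes of the count table. Of these, 9 passed the filter on low counts, together with 15101 genes in all, and Sln did not. The rats were 6 weeks old when bought, and the labels place the harvest 1 day after surgery. Sham rats had a thoracotomy without ligation. In MI rats the left anterior descending artery, which supplies much of the left ventricle, was tied. In iCarP+/Light+ rats the same ligation was followed by injection of Chlorella, a green alga that releases oxygen when lit, into the infarcted wall. A polyester patch that guides light from an optical fiber (iCarP) was then stuck on the epicardium with a hydrogel adhesive, and light (55 mW) was given for 3 h. Alga, patch, adhesive and light thus set this group apart from MI all at once, and no group with the patch or the alga alone was analysed here. The harvest protocol in the labels names infarct regions for all 3 groups, although Sham rats have no infarct.

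In each heartbeat, calcium enters the cardiomyocyte through L-type channels in the T-tubules and opens ryanodine receptors on the facing sarcoplasmic reticulum, which release the stored calcium that drives contraction. Relaxation follows when the pump SERCA2a returns calcium to the store, under restraint by the small proteins phospholamban and sarcolipin, while the sodium-calcium exchanger carries calcium out of the cell. Triadin, calsequestrin and the histidine-rich calcium binding protein sit inside or across the reticulum membrane, and junctophilin holds the reticulum against the T-tubule.

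Transcript levels of the 9 tested genes were lower after ligation. Between MI and Sham rats all 9 tested genes fell, from 1.83-fold for Slc8a1 to 17.9-fold for Hrc, and in each of the 9 the groups did not overlap. Against this, 33.6% of all tested genes were called lower, 30.2% were called higher, and 59.0% did not overlap between the groups. The median log2 fold change was -3.21 over the 9 genes and -0.06 over all tested genes. Between iCarP+/Light+ and MI rats, 0 of the 9 genes passed the threshold in edgeR's quasi-likelihood test, 0 had an unadjusted p below 0.05, and all 9 overlapped between the groups. DESeq2 and limma-voom also called 0 of the 9. In that comparison 11.6% of all tested genes were called higher, 2.01% were called lower and 16.4% did not overlap. The median log2 fold change was 0.08 over the 9 genes and 0.01 over all. iCarP+/Light+ rats stayed below Sham rats in all 9 genes without overlap, where 33.0% of tested genes were called lower, 33.5% higher and 63.5% did not overlap. The log2 fold changes against Sham were -1.98 for Cacna1c, -2.94 for Ryr2, -3.03 for Jph2, -3.14 for Trdn, -2.79 for Casq2, -4.08 for Hrc, -3.36 for Atp2a2, -3.27 for Pln and -1.21 for Slc8a1, with edgeR adjusted p of 0.000464 or less. Their median was -3.03, beside 0.02 over all tested genes. Both comparisons with Sham share the same 4 Sham rats. In tissue homogenates, fewer cardiomyocytes and less of a transcript per cardiomyocyte cannot be told apart.

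Libraries held 14064414 to 17136958 gene counts, so that 3 counts corresponded to 0.144 to 0.228 CPM (counts relative to library size, here scaled by TMM unless stated otherwise). The mitochondrial share of counts was 22.8% to 28.9% among Sham rats, against 8.52% to 11.5% in the MI group and 7.14% to 14.2% in the iCarP+/Light+ group. The summed level of 9 sarcomere genes, which build the contractile filaments of cardiomyocytes, ranged over 48820 to 53897 CPM (Sham), 3952 to 7427 CPM (MI) and 3048 to 8449 CPM (iCarP+/Light+). All 9 fell in MI against Sham, with a median log2 fold change of -3.07.

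**Figure D1:**
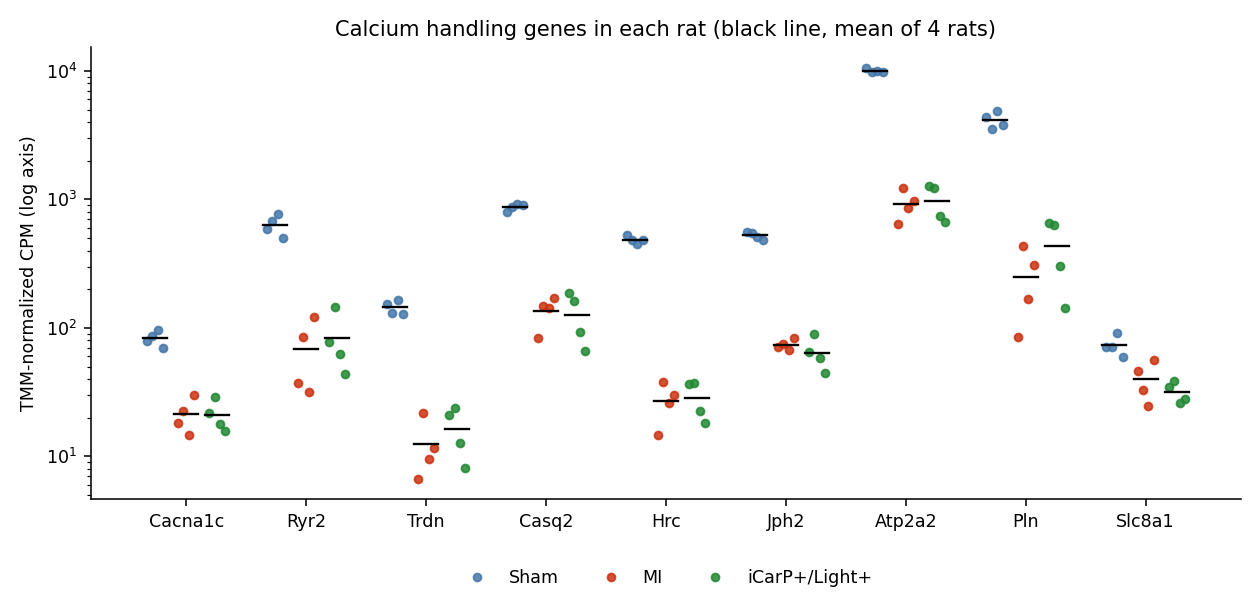
TMM-normalized CPM of the 9 tested genes on a log axis, 1 point per rat and a black line at the mean of 4 rats. The 4 Sham rats lay above all MI and iCarP+/Light+ rats for every gene, with the narrowest gap for Slc8a1 (59.6 CPM in the lowest Sham rat and 56.3 CPM in the highest MI rat).

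The entry step was represented by Cacna1c, which encodes the pore of the L-type channel (ENSRNOG00000007090, chr4:150641066-150829913, minus strand, rn6). Cacna1c was counted at 79.6, 86.6, 95.7 and 70.2 CPM in Sham rats 1, 2, 3 and 5. The values were 18.2, 22.4, 14.7 and 29.8 CPM in MI rats 1, 3, 4 and 5, and 21.6, 29.2, 17.7 and 15.8 CPM in iCarP+/Light+ rats 1, 2, 4 and 5. Every ligated rat lay below every Sham rat, and the ligated groups lay within the same range. Cacna1c fell 3.90-fold in MI against Sham (log2 fold change -1.96 ± 0.23 SE, edgeR adjusted p = 7.8e-06, n = 4 per group). Its difference between iCarP+/Light+ and MI was -0.01 on the log2 scale (95% interval -0.50 to 0.47, edgeR adjusted p = 0.983).

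Release was represented by 5 genes. Ryr2, the ryanodine receptor of the heart (ENSRNOG00000017060, chr17:65535403-65955606, minus strand), stood at 587, 676, 774 and 503 CPM in Sham, at 37.1, 85.7, 31.8 and 121 CPM in MI, and at 78.3, 146, 63.1 and 43.4 CPM in iCarP+/Light+ rats, in the same order of rats as above. It fell 9.23-fold in MI against Sham (log2 fold change -3.21 ± 0.46 SE, edgeR adjusted p = 4.45e-05), and within each ligated group the rats differed more than the 2 group means did. Jph2, encoding junctophilin-2 (ENSRNOG00000008170, chr3:159712325-159775643, minus strand), was the most even of the set among MI rats. It stood at 561, 546, 507 and 482 CPM in Sham, at 70.6, 75.4, 66.8 and 83.5 CPM in MI, and at 65.0, 89.7, 57.9 and 44.4 CPM in iCarP+/Light+ rats. Jph2 fell 7.08-fold in MI (log2 fold change -2.82 ± 0.19 SE, edgeR adjusted p = 1.11e-07).

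Triadin anchors calsequestrin to the ryanodine receptor, and its gene Trdn (ENSRNOG00000012609, chr1:25403390-25839345, minus strand) was counted on the longest gene model of the set after Ryr2, Cacna1c and Atp2a2. Trdn was counted at 154, 132, 165 and 129 CPM in Sham, at 6.70, 21.8, 9.62 and 11.7 CPM in MI, and at 20.9, 23.7, 12.7 and 8.09 CPM in iCarP+/Light+ rats. The decrease in MI was 11.6-fold (log2 fold change -3.54 ± 0.38 SE, edgeR adjusted p = 3.67e-06). Casq2 encodes calsequestrin-2, which buffers calcium in the store (ENSRNOG00000016243, chr2:204512302-204568656, plus strand). Its level was 799.8, 867, 927 and 904 CPM in Sham, 83.5, 148, 143 and 172 CPM in MI, and 187, 161, 92.8 and 66.0 CPM in iCarP+/Light+ rats. Casq2 fell 6.40-fold (log2 fold change -2.68 ± 0.31 SE, edgeR adjusted p = 6.84e-06). Hrc, the histidine-rich calcium binding protein (ENSRNOG00000020719, chr1:101324652-101328435, plus strand), showed the largest fold change of the 9. It went from 525, 482, 451 and 481 CPM in Sham to 14.7, 38.1, 25.8 and 29.8 CPM in MI, a 17.9-fold decrease (log2 fold change -4.16 ± 0.30 SE, edgeR adjusted p = 2.1e-07). In iCarP+/Light+ rats it was 36.3, 37.4, 22.7 and 18.2 CPM, a range within that of the MI rats. Only 1.15% of the 15101 genes had a lower log2 fold change than Hrc between MI and Sham.

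None of the 5 release genes passed the threshold between iCarP+/Light+ and MI. The log2 differences were 0.27 for Ryr2 (95% interval -0.65 to 1.18), -0.20 for Jph2 (-0.58 to 0.17), 0.40 for Trdn (-0.37 to 1.16), -0.11 for Casq2 (-0.73 to 0.52) and 0.08 for Hrc (-0.50 to 0.66). These intervals leave room for changes of either sign. Hrc overlaps Ppfia3 on the opposite strand, and the strand setting of the counting is not given in the sources used here. Ppfia3 held 0 to 30 counts per rat where Hrc held at least 259.

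Uptake was represented by the pump and its restraint. Atp2a2 encodes SERCA2 (ENSRNOG00000001285, chr12:39553903-39603326, plus strand) and was nearly uniform in Sham rats. Its level was 10560.2, 9835, 9929 and 9748 CPM in Sham, 649, 1224, 852 and 976 CPM in MI, and 1283, 1224, 738 and 671 CPM in iCarP+/Light+ rats. Ligated rats spanned about the same range in both groups, far below Sham. Atp2a2 fell 10.8-fold in MI (log2 fold change -3.44 ± 0.26 SE, edgeR adjusted p = 2.59e-07) and differed by 0.08 on the log2 scale between iCarP+/Light+ and MI (95% interval -0.42 to 0.59, edgeR adjusted p = 0.870). Pln, encoding phospholamban (ENSRNOG00000000413, chr20:34633157-34642904, plus strand), varied most among ligated rats. Pln stood at 4409, 3562, 4921 and 3812 CPM in Sham, at 84.9, 434, 167 and 311 CPM in MI, and at 654, 628, 304 and 144 CPM in iCarP+/Light+ rats. It fell 16.8-fold in MI (log2 fold change -4.07 ± 0.55 SE, edgeR adjusted p = 2.79e-05) and 9.66-fold in iCarP+/Light+ against Sham (log2 fold change -3.27 ± 0.53 SE, edgeR adjusted p = 0.000117). With iCarP+/Light+ rats 1 and 2 above all 4 MI rats and rats 4 and 5 inside their range, the difference between these groups was 0.80 (95% interval -0.26 to 1.85, edgeR adjusted p = 0.347). Pln overlaps Cep85l on the opposite strand, which held 50 to 184 counts per rat where Pln held at least 1773.

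Sarcolipin restrains SERCA like phospholamban and is known mainly from atrium and skeletal muscle. Sln (ENSRNOG00000009047, chr8:58431407-58435654, plus strand) held 1, 2, 3 and 2 reads in Sham rats, 2, 3, 2 and 3 reads in MI rats, and 0 reads in each iCarP+/Light+ rat. No library exceeded 3 counts, so no fold change is given. Atrial tissue in the samples was looked for with Bmp10, at 0 to 9 counts per rat, and with the atrial light chain Myl7, which ranged from 0.590 to 56.9 CPM among Sham rats.

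Extrusion was represented by Slc8a1, the sodium-calcium exchanger (ENSRNOG00000008479, chr6:4258991-4520604, minus strand), which changed least. Slc8a1 was counted at 70.7, 71.5, 91.8 and 59.6 CPM in Sham, at 46.5, 32.9, 24.7 and 56.3 CPM in MI, and at 34.4, 38.3, 26.1 and 27.9 CPM in iCarP+/Light+ rats. MI rat 5 came within a few CPM of Sham rat 5, the nearest approach of the groups for any of the 9 genes. The decrease in MI was 1.83-fold (log2 fold change -0.87 ± 0.23 SE, edgeR adjusted p = 0.00478), and 24.4% of all genes had a lower log2 fold change. When libraries were scaled by total counts alone, the log2 fold change was -0.28 (edgeR adjusted p = 0.319), in a fit where the median of all genes stood at 0.52 and Slc8a1 thus at -0.80 relative to it. Slc8a1 fell 2.31-fold in iCarP+/Light+ against Sham (log2 fold change -1.21 ± 0.23 SE, edgeR adjusted p = 0.000464) and differed by -0.34 between iCarP+/Light+ and MI (95% interval -0.84 to 0.16, edgeR adjusted p = 0.404).

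**Figure D2:**
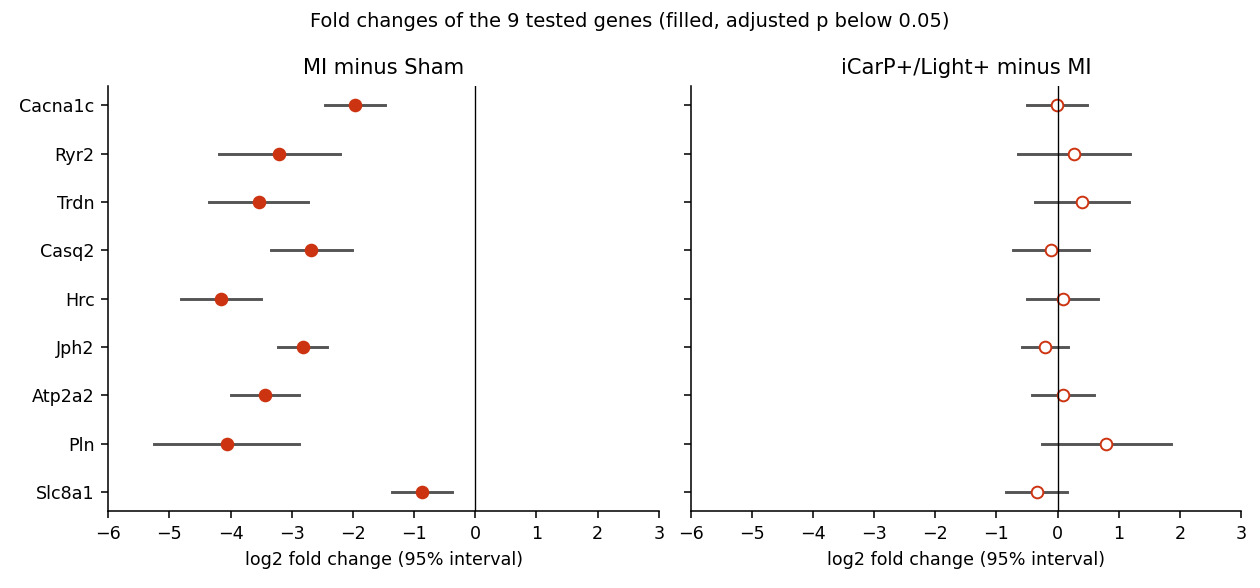
log2 fold changes of the 9 tested genes with 95% intervals, MI minus Sham on the left and iCarP+/Light+ minus MI on the right, 4 rats per group. All 9 intervals on the left lie below 0, from -0.87 for Slc8a1 to -4.16 for Hrc, and all 9 on the right include 0.

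The sequences at the starts of 4 of the 9 genes are shown, among them the pump and its restraint. Of the store proteins Hrc, Trdn and Casq2, the genes with the largest (Hrc) and the smallest (Casq2) fold change were taken. Each sequence runs from 250 bases before to 50 bases after the start of the gene in RefSeq (GRCr8, plus strand for all 4). Of the 10 genes, 9 had an entry. Capitals mark GGGCGG, known as the GC box. They also mark the CCAAT box (its letters are its name) and the MEF2 motif, all searched on both strands.
Atp2a2, chr12:39733269-39733568: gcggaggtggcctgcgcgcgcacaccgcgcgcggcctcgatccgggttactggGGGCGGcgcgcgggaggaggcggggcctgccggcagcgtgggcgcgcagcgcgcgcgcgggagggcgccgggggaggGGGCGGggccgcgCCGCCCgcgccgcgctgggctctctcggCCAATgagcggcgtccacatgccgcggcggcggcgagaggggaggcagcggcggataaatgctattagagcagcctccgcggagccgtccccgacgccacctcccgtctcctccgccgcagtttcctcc
Pln, chr20:33172244-33172543: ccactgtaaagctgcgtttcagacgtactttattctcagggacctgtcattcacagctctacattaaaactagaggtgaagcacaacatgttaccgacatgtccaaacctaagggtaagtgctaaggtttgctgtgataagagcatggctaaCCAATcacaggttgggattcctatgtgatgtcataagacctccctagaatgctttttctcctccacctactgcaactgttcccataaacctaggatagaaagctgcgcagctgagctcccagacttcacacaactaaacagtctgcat
Hrc, chr1:104949500-104949799: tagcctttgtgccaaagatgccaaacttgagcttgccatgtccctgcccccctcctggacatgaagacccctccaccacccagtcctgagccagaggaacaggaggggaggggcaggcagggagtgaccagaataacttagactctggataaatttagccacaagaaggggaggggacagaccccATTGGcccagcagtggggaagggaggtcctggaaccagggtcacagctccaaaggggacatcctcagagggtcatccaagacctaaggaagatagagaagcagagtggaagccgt
Casq2, chr2:192214306-192214605: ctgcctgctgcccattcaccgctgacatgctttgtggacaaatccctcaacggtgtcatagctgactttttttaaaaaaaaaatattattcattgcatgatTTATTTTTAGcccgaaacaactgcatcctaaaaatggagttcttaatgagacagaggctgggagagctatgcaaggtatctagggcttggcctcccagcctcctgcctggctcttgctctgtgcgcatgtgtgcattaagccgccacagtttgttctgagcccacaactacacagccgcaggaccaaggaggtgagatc
The Atp2a2 window was rich in G and C (79% of bases) and held 3 GC boxes and a CCAAT box, whereas those of Pln (45%), Casq2 (47.7%) and Hrc (56.7%) lay nearer the median of 51.7% over 33469 rat promoters. A CCAAT box was found in 5 of the 9 windows (Atp2a2, Pln, Hrc, Cacna1c and Slc8a1) and in 37.5% of all promoters. GC boxes were found for Atp2a2 and Ryr2 and in 33.1% of all promoters. The MEF2 motif, read by a family of factors active in muscle, occurred in the Casq2 window and in 3.29% of all promoters. CATTCC, a motif of TEAD factors, occurred for Cacna1c and in 14.2%. AGATAA (11.6% of all promoters), TATAAA (14.2%) and the CArG box (1.64%) were in 0 of the 9 windows. No motif was shared by all 9 windows, and a match in letters is not evidence of binding.

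The genes did not fall in step. Counts were next set against the summed counts of the 9 sarcomere genes in the same rat, which gives the level of a transcript per unit of other cardiomyocyte transcripts. On this scale most tested genes rose in MI against Sham, as the sarcomere transcripts themselves were lower (92.3% called higher and 1.21% called lower, median log2 fold change 3.10). Of the 9 calcium handling genes, 2 rose, 2 fell and 5 did not pass the threshold. Hrc went from 10.1, 8.94, 8.72 and 9.86 reads per 1000 sarcomere reads in Sham to 3.73, 5.38, 3.48 and 4.92 in MI, below all Sham rats (log2 fold change -1.10 ± 0.31 SE, edgeR adjusted p = 0.00187). Pln went from 84.7, 66.1, 95.2 and 78.1 to 21.5, 61.3, 22.5 and 51.2 reads per 1000 (log2 fold change -1.05 ± 0.37 SE, edgeR adjusted p = 0.0104). Hrc and Pln thus fell relative to the summed sarcomere reads, though Myh6, a myosin heavy chain and 1 of the 9 sarcomere genes, fell further in MI (log2 fold change -4.73) than either. Slc8a1 rose relative to sarcomere reads, from 1.36, 1.33, 1.78 and 1.22 to 11.8, 4.65, 3.32 and 9.28 per 1000 (log2 fold change 2.35 ± 0.40 SE, edgeR adjusted p = 5.58e-06). Cacna1c rose from 1.53, 1.61, 1.85 and 1.44 to 4.60, 3.17, 1.97 and 4.92 per 1000 (log2 fold change 1.19 ± 0.34 SE, edgeR adjusted p = 0.0023). Both lay below the shift of all genes on this scale. The sarcomere genes themselves also spread on it. Tnnc1 (log2 fold change 1.13, edgeR adjusted p = 0.0011) and Tpm1 (0.83, edgeR adjusted p = 0.00789) were called higher. Myh6 was called lower (-1.64, edgeR adjusted p = 3.55e-05), and the others did not pass. Cacna1c, at 1.19, thus rose about as much as the sarcomere gene Tnnc1.

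The other 5 genes did not pass the threshold per sarcomere read, with log2 fold changes of -0.11 for Ryr2 (95% interval -0.92 to 0.71), -0.34 for Atp2a2 (-0.94 to 0.26), -0.49 for Trdn (-1.16 to 0.18), 0.40 for Casq2 (-0.24 to 1.04) and 0.34 for Jph2 (-0.36 to 1.03). Between iCarP+/Light+ and MI, 0 of the 9 passed the threshold per sarcomere read, where 6.83% of all genes were called higher and 0.146% lower. Pln alone had an unadjusted p below 0.05. It stood at 77.4, 96.4, 76.0 and 47.1 reads per 1000 in iCarP+/Light+ rats, and only rat 5 was inside the MI range (log2 fold change 0.92, 95% interval 0.16 to 1.69, edgeR adjusted p = 0.172). Between iCarP+/Light+ and Sham, where 93.4% were called higher and 0.642% lower, Cacna1c (1.37, edgeR adjusted p = 0.000648) and Slc8a1 (2.17, edgeR adjusted p = 1.42e-05) were higher in log2 fold change. The sarcomere genes Tnnc1 and Myh6 were at 1.09 and -1.44 in this comparison. Hrc was lower (-0.79, edgeR adjusted p = 0.0183), and Pln was at -0.13 (95% interval -0.89 to 0.63).

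**Figure D3:**
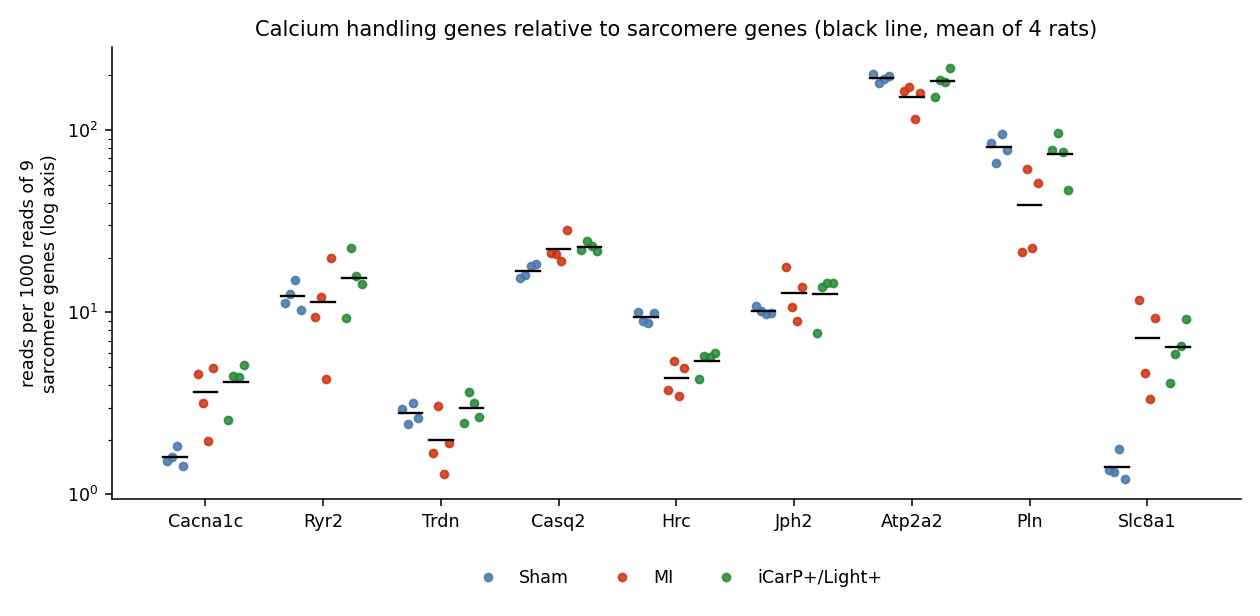
Reads of each gene per 1000 reads of 9 sarcomere genes in the same rat, on a log axis, with 1 point per rat and a black line at the mean of 4 rats. Slc8a1 and Cacna1c lie higher and Hrc lies lower in all MI rats than in all Sham rats, while Pln in iCarP+/Light+ rats (47.1 to 96.4) reaches over the Sham range.

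Ratios between partner genes do not depend on library scaling. For 8 ratios in 3 pairs of groups, the smallest p that a two-sided exact permutation test of 4 rats against 4 can give is 0.0286. The smallest adjusted p over these 24 comparisons was 0.0762, so no ratio passed the threshold after adjustment. With this smallest p, a ratio could pass only if most of the comparisons reached it, so the lack of calls says little. The 24 include Sln to Atp2a2, which is not read but enters every adjusted p. That ratio reached the smallest p in MI against Sham and in iCarP+/Light+ against MI. The ratio of Pln to Atp2a2 reads, phospholamban to pump, was 0.418, 0.362, 0.496 and 0.391 in Sham, 0.131, 0.355, 0.196 and 0.318 in MI, and 0.510, 0.513, 0.412 and 0.214 in iCarP+/Light+ rats. All MI rats were below all Sham rats (log2 difference -0.83, exact permutation p = 0.0286, adjusted p = 0.0762), though MI rat 3 missed Sham rat 2 by little. In iCarP+/Light+ rats 1, 2 and 4 the ratio lay in or above the range of Sham, and in rat 5 within that of MI. The log2 difference from MI was 0.75 (exact permutation p = 0.171, adjusted p = 0.316) and from Sham -0.09 (exact permutation p = 0.943).

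Among store proteins, the ratio of Hrc to Casq2 reads was 0.657, 0.556, 0.486 and 0.533 in Sham, 0.177, 0.258, 0.181 and 0.174 in MI, and 0.195, 0.233, 0.245 and 0.276 in iCarP+/Light+ rats. It was 2.85-fold lower in MI (log2 difference -1.51, exact permutation p = 0.0286, adjusted p = 0.0762) and 2.36-fold lower in iCarP+/Light+ than in Sham, with no overlap in either. For extrusion against uptake, Slc8a1 to Atp2a2 was 5.85-fold higher in MI than in Sham (log2 difference 2.55) and 4.61-fold higher in iCarP+/Light+ (2.20), without overlap (exact permutation p = 0.0286 for each, adjusted p = 0.0762). For entry against release, Cacna1c to Ryr2 ranged over 0.124 to 0.139 in Sham, 0.248 to 0.491 in MI (log2 difference 1.40) and 0.199 to 0.364 in the iCarP+/Light+ group (1.06), again with an exact permutation p = 0.0286 and adjusted p = 0.0762 for each. Casq2, Trdn and Jph2 relative to Ryr2 overlapped between MI and Sham, with log2 differences of 0.68, -0.26 and 0.58. The ratio of Sln to Atp2a2 was the eighth ratio and is not read, as it rests on 0 to 3 reads.

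**Figure D4:**
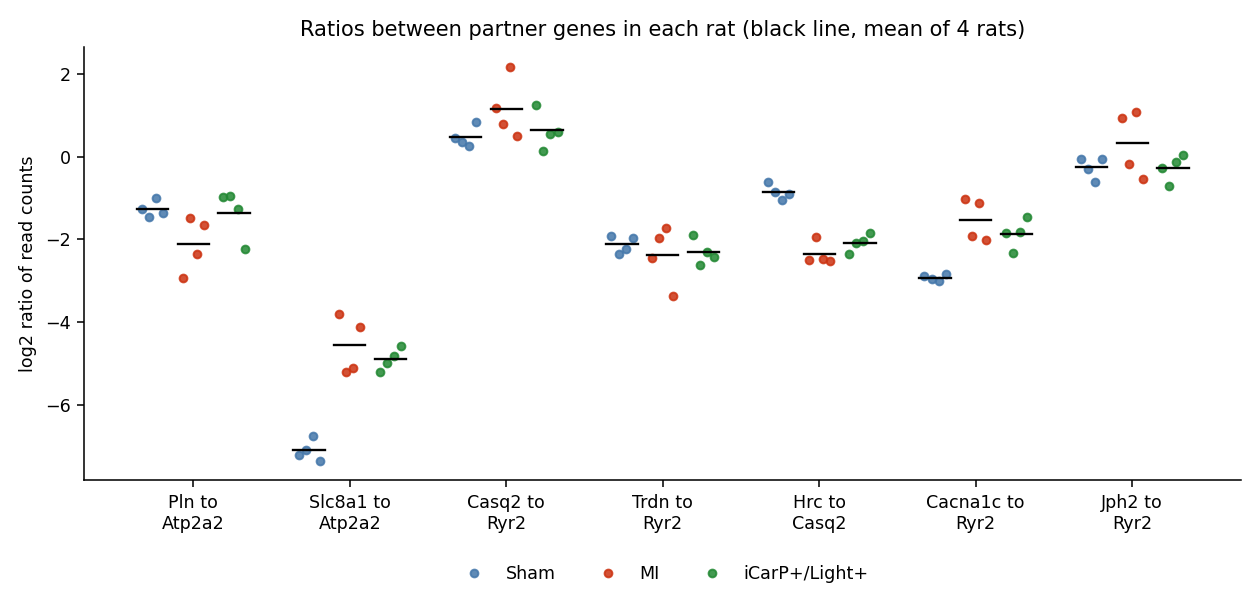
log2 ratio of read counts between 2 partner genes in each rat, 1 point per rat, with a black line at the mean of 4 rats. Hrc to Casq2, Slc8a1 to Atp2a2 and Cacna1c to Ryr2 separate both ligated groups from Sham, whereas Pln to Atp2a2 separates MI alone, with iCarP+/Light+ rats from -2.22 to -0.96.

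Levels between genes were compared per kilobase of gene model. In Sham the order of mean CPM per kilobase was Pln (1853 ± 271 SD, n = 4) and Atp2a2 (1513 ± 55.7), whose ranges overlapped, then Casq2 (346 ± 22.0), Jph2 (246 ± 17.0) and Hrc (191 ± 12.03), each apart from its neighbours. Ryr2 (42.9 ± 7.84), Trdn (31.5 ± 3.80) and Slc8a1 (24.3 ± 4.45) followed with overlapping ranges between neighbours, and Cacna1c (10.4 ± 1.35) was the lowest. In MI the pump and its restraint changed places within their overlap, with Atp2a2 at 140 ± 36.3 and Pln at 111 ± 68.7 CPM per kilobase. The mean of Slc8a1 (13.3 ± 4.66) lay above those of Hrc (10.7 ± 3.82), with overlap, and of Ryr2 (4.64 ± 2.85). In iCarP+/Light+ rats Pln (192 ± 111) and Atp2a2 (148 ± 48.2) overlapped, as did Hrc (11.3 ± 3.80) and Slc8a1 (10.5 ± 1.88). Slc8a1 was thus below Hrc in every Sham rat per kilobase and overlapped it in both ligated groups. The gene models are those of the count table, and reads counted outside a listed model are not part of these levels.

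Rats of one group were next compared with each other. The ratio of the highest to the lowest rat was 1.08 to 1.54 across the 9 genes in Sham (median 1.28), 1.25 to 5.12 in MI (median 2.28) and 1.47 to 4.56 in iCarP+/Light+ rats (median 2.05), with Pln the widest in both ligated groups. The same rats were low for many of the genes. In iCarP+/Light+, rat 5 was lowest for 8 of the 9, and it also had the lowest summed sarcomere level of its group (3048 CPM). In MI, rat 1 was lowest for 5 genes and had the lowest sarcomere level (3952 CPM), and rat 4 was lowest for the other 4, Ryr2, Cacna1c, Slc8a1 and Jph2, although its sarcomere level was the highest of the group (7427 CPM). MI rat 4 also differed by length of gene, as the longest genes (the top of 5 equal bins by length) deviated from the group by a median that was -0.48 log2 units relative to the shortest bin. In the other 11 rats this difference lay between -0.10 and 0.24. The part of this in the low values of the long gene Ryr2 in MI rat 4 was not tested.

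Across the 12 rats, each of the 9 genes tracked the mean of the others, with Pearson r from 0.842 for Slc8a1 to 0.992 for Atp2a2. These values describe 3 separate groups of rats and carry no p. The 5 genes outside the set most like its mean were Usp13, Pde4dip, Myadml2, Oxct1 and Cdnf, with r between 0.997 and 0.999 over the 12 rats and log2 fold changes between MI and Sham of -2.38, -2.999, -3.18, -3.26 and -4.30. Oxct1 encodes an enzyme of ketone body use, and Pde4dip a scaffold of phosphodiesterase.

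A wider list of 59 other calcium genes gave the setting of the set. Of these, 57 were matched by symbol, 56 were tested, and Fkbp1b stayed under the filter with 0 to 10 counts. In MI against Sham 29 of the 56 fell, 11 rose and 16 did not pass, beside 33.6% of all tested genes called lower and 30.2% higher. Their median log2 fold change was -0.40, against -0.06 over all tested genes and -3.21 in the 9 genes of the set. When libraries were scaled by total counts alone, 18 of the 56 were lower and 21 higher. Among channel subunits 5 of 6 fell and 0 rose, among release and store genes 9 of 17 fell and 3 rose, and among kinases, phosphatases and their regulators 8 of 13 fell and 1 rose. Uptake and extrusion had 3 lower and 2 higher of 6, the mitochondrial uniporter 2 lower and 2 higher of 6, store-operated entry 1 lower and 2 higher of 5, and T-tubule shape 1 lower and 1 higher of 3.

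The deepest decreases in MI included Tmem38a, a counter-ion channel of the reticulum of muscle, which fell 15.6-fold from 371 ± 20.7 to 23.7 ± 5.49 CPM (SD, n = 4 each, edgeR adjusted p = 2.76e-07). Akap6, a scaffold that brings protein kinase A to the ryanodine receptor, fell 7.24-fold (edgeR adjusted p = 8.36e-06), and S100a1, a calcium sensor that acts on the receptor and the pump, fell 7.11-fold (edgeR adjusted p = 3.23e-05). Atp2b2, a plasma membrane calcium pump, was called lower (edgeR adjusted p = 0.000111) but held only 0 to 7 reads in MI rats against 76 to 335 in Sham. Other genes of the list rose. Orai2, a subunit of the store-operated channel, rose 4.65-fold from 6.80 ± 0.304 to 31.7 ± 4.34 CPM (edgeR adjusted p = 2.09e-07). Mcub, the subunit that dampens the mitochondrial uniporter, rose 6.86-fold from 1.04 ± 0.267 to 7.14 ± 3.63 CPM (edgeR adjusted p = 6.24e-05). Slc8b1, the mitochondrial sodium-calcium exchanger, rose 3.64-fold (edgeR adjusted p = 1.61e-06) and the plasma membrane pump Atp2b1 rose 2.19-fold (edgeR adjusted p = 8.22e-05).

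Against MI, iCarP+/Light+ rats had 6 of these 56 genes higher and 0 lower, beside 11.6% of all tested genes called higher and 2.01% lower. With total counts alone, 5 were higher and 7 lower. Tmem38b, the counter-ion channel related to Tmem38a that is found beyond muscle, was counted at 23.7, 27.6, 27.5 and 27.7 CPM in Sham, 21.4, 21.7, 29.2 and 18.8 CPM in MI, and 49.0, 86.8, 127 and 107 CPM in iCarP+/Light+ rats. All 4 iCarP+/Light+ rats exceeded every other rat, and Tmem38b rose 4.05-fold over MI (log2 fold change 2.02 ± 0.24 SE, edgeR adjusted p = 9.72e-05). Its muscle relative Tmem38a stayed low, at 14.3 to 35.9 CPM in iCarP+/Light+ and 17.4 to 30.2 CPM in MI rats. Orai2 rose further, 1.93-fold, to 61.0 ± 13.1 CPM (edgeR adjusted p = 0.000813). Sri, encoding sorcin, which inhibits the ryanodine receptor, rose 1.78-fold to 115 ± 22.0 CPM (edgeR adjusted p = 0.00149), and Calm2, which encodes calmodulin, rose 1.77-fold to 111 ± 18.8 CPM (edgeR adjusted p = 0.0037). Orai1, another subunit of the store-operated channel, rose 1.44-fold (edgeR adjusted p = 0.0207) and was named after its value was seen. Against Sham, iCarP+/Light+ rats had 24 of the 56 lower and 14 higher, beside 33.0% of all tested genes called lower and 33.5% higher. With total counts alone, 22 were lower and 18 higher. Camk2a, a calmodulin-dependent kinase, fell 8.71-fold against Sham (edgeR adjusted p = 3.23e-06), beside Tmem38a at 14.3-fold and Akap6 at 7.86-fold lower. It held only 105 to 151 reads in Sham and 11 to 29 in iCarP+/Light+ rats. Camk2d, of the same kinase family, had higher means, at 166 CPM in Sham and 76.5 CPM in iCarP+/Light+ rats. Atp2b2 was also called lower, with 0 to 26 reads in iCarP+/Light+ rats. In the same comparison Mcub rose 9.70-fold (edgeR adjusted p = 1.44e-05), Orai2 8.96-fold, Slc8b1 4.42-fold and Tmem38b 3.46-fold.

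**Figure D5:**
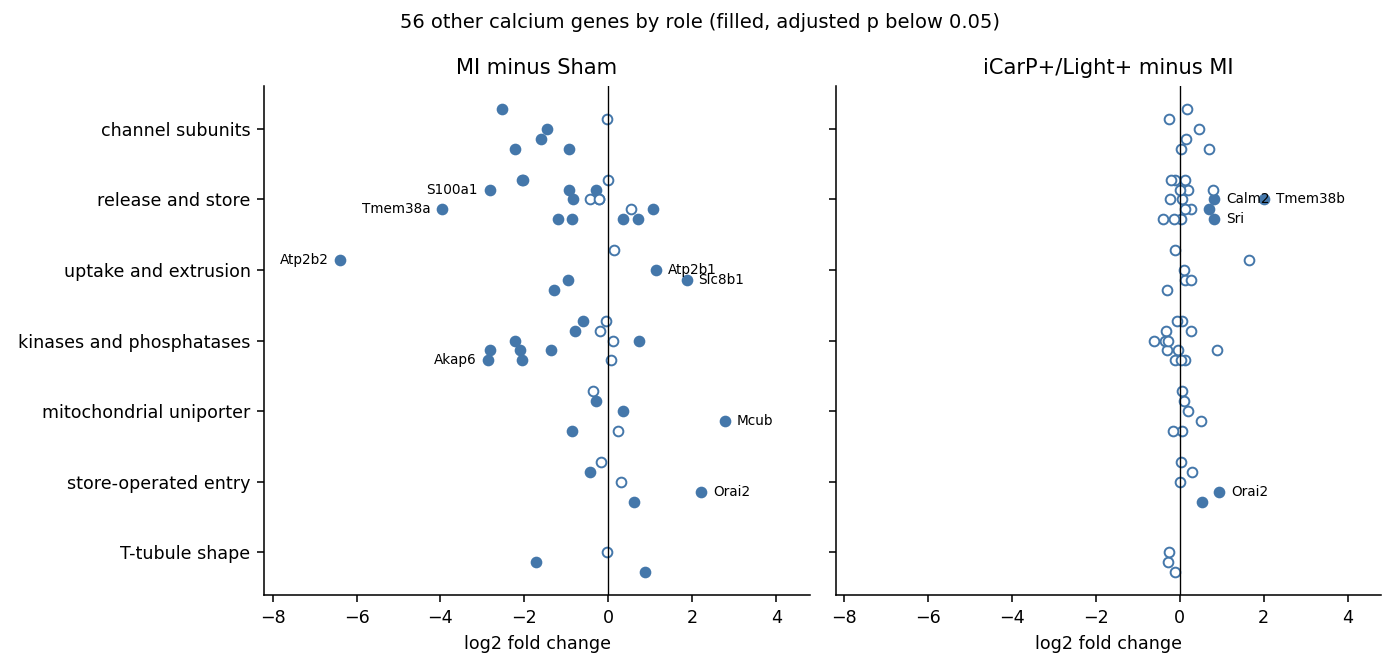
log2 fold changes of 56 other calcium genes by role, 1 point per gene, filled where the adjusted p was below 0.05, MI minus Sham on the left and iCarP+/Light+ minus MI on the right. On the left 29 filled points lie below 0 and 11 above, and on the right all 6 filled points lie above 0, with Tmem38b farthest at 2.02.

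Markers of other cells were counted beside the shares of all tested genes called, which were 30.2% higher and 33.6% lower in MI against Sham, and 11.6% higher and 2.01% lower in iCarP+/Light+ against MI. All 11 leukocyte markers in the table rose in MI against Sham, with summed levels of 351 to 565 CPM (Sham), 4914 to 8501 CPM (MI) and 7640 to 13717 CPM (iCarP+/Light+). Between iCarP+/Light+ and MI, 7 of the 11 rose and 0 fell. Their part in the higher Orai2, Mcub, Tmem38b, Sri and Calm2 levels was not tested. Fibroblast markers fell in MI for 6 of 7 genes (summed, 8460 to 10601, 2424 to 2802 and 1263 to 2831 CPM in the same order of groups), and endothelial markers fell for 5 of 5 tested (1442 to 1645, 649 to 1008 and 879 to 986 CPM). Smooth muscle markers had 1 of 4 higher and 1 lower in MI, near the shares of all genes (233 to 264, 134 to 349 and 69.2 to 165 CPM). Red blood cell markers fell for 5 of 5 in MI and rose for 4 of 5 in iCarP+/Light+ against MI (7861 to 10559.6, 2503 to 6925 and 6181 to 17455 CPM). Their part in the levels of the calcium handling genes was not tested. Atrial markers had 1 of 5 tested higher and 2 lower in MI (205 to 311, 381 to 1088 and 884 to 1076 CPM), a sum that in both ligated groups was mostly Nppa, which ventricles re-express under stress (means of 779 CPM in MI and 961 CPM in iCarP+/Light+, against 104 CPM in Sham). Skeletal muscle markers had 1 of 4 tested lower (2293 to 2689.9, 169 to 323 and 146 to 342 CPM), a sum carried by Ckm, which the heart also expresses.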

How the data were processed

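Total RNA of 12 left ventricles was extracted with Trizol, and libraries were made with the NEBNext Ultra kit, per the labels. The authors deposited unnormalized counts, 1 column of whole reads per gene for every animal. The submitters' processing notes name HISAT2, featureCounts and rn6, and versions, strand setting and annotation release are not given in the sources used here. Coordinates are those of the count table, and 1716 of its 34599 loci had no type. The members and lists were chosen with earlier results of these data known.

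The test was edgeR's (version 4.0.16, R 4.3.3) quasi-likelihood F-test on 15101 genes that filterByExpr passed at a minimum count of 10, with TMM scaling and a design of group means over the 12 rats. P-values were adjusted by Benjamini-Hochberg over all genes tested, with a threshold of 0.05. Each SE was derived from the test, as the absolute log2 fold change divided by the square root of F. The 95% intervals were built from this SE with a t quantile. For levels relative to cardiomyocyte transcripts, the library size was the summed counts of 9 sarcomere genes (Myh6, Myl2, Myl3, Tnnt2, Tnni3, Tnnc1, Actc1, Tpm1 and Mybpc3). Ttn, planned as 1 more, was not used here. Ratios of counts (0.5 added) were tested by exact permutation, two-sided. The study's general tests for comparing groups were not applied to these counts. The floor of a library was 3 counts and covers counting error only.

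All 10 members were named. Of the wider list, the 4 highest and 4 lowest log2 fold changes past the threshold in each pair of groups were named. Orai1 and Camk2d were named in addition, after their values were seen. The other tested genes of that list entered its counts and medians, and they are not reported by name here. The most similar genes were the 5 with the highest r to the mean of the members. Within groups, the chi-square per gene between rats was 14.8 to 119 over 18 pairs, so no library was a copy. The edgeR p-values set a difference between groups against the spread between these rats, and the permutation p-values set it against relabelings of the rats. Alternatives were other scalings, DESeq2 1.42.0, limma-voom (limma 3.58.1), other filters, no mitochondrial genes, the compared groups only, a replicate block, other references and each rat left out. The models were tested on simulated data. Promoter sequences came from RefSeq (GRCr8), whose coordinates were not mixed with rn6.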

Additional observations from a re-analysis of the deposited data

Results flagged for a closer look

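Among 84 sets of 4 rats examined for a rat standing apart, 2 were found, where chance alone gives about 4.2 (1 in 20). Tmem38b in Sham rat 1 lay at 4.57 log2 CPM, below the other Sham rats at 4.79 to 4.799, and its gap was 0.945 of the range of the group. The log2 ratio of Hrc to Casq2 in MI rat 3 was -1.96, above the other MI rats at -2.52 to -2.46, with a gap of 0.897 of the range. MI rat 3 still lay below every Sham rat in that ratio.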

How the results depend on the processing

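Of 726 values recomputed under other settings, 708 were scored as unchanged, as were 653 of 676 values with 1 rat left out. For genes, and for ratios under other settings, this meant the same direction and side of the threshold. Counts of called genes were scored on their total within a fixed margin, whatever the direction. In MI against Sham the wider list, at 29 lower and 11 higher, was thus unchanged at 18 lower and 21 higher with total counts alone. Ratios with 1 rat left out had no p and were scored on direction and a shift below the larger group SD. The sign changed in 13 values under other settings and in 23 with 1 rat left out. None of these had passed the threshold before, and none passed after where a p was computed. In iCarP+/Light+ against MI, total counts alone gave log2 differences of -0.019 for Ryr2, -0.18 for Atp2a2 and -0.18 for Hrc, upper quartile scaling -0.085 for Atp2a2 and -0.087 for Hrc, and limma-voom 0.0058 for Cacna1c. Relative to the geometric mean of the sarcomere genes, Casq2 was at -0.020 in that comparison and Trdn at -0.032 against Sham, where Trdn was at -0.16 without Myh6. With a replicate block, Atp2a2 was at 0.016 and Pln at 0.11 relative to sarcomere genes in iCarP+/Light+ against Sham. As a difference of medians, the ratio of Pln to Atp2a2 was 0.18 against Sham and that of Trdn to Ryr2 -0.14 against MI. With each rat left out in turn, iCarP+/Light+ against MI ranged from -0.16 to 0.68 for Ryr2, -0.078 to 0.24 for Atp2a2, -0.36 to 0.025 for Casq2, -0.21 to 0.19 for Cacna1c, -0.13 to 0.29 for Hrc and -0.26 to 0.29 for Trdn to Ryr2. The ratio of Trdn to Ryr2 ranged from -0.48 to 0.069 in MI against Sham, and in iCarP+/Light+ against Sham the ranges were -0.22 to 0.20 for Pln to Atp2a2, -0.046 to 0.33 for Casq2 to Ryr2 and -0.12 to 0.14 for Jph2 to Ryr2. With every gene of at least 1 count tested, 1 calcium handling gene was called between iCarP+/Light+ and MI, and this was Sln, which held 0 to 3 reads and was lower. In iCarP+/Light+ against Sham 10 were then called in place of 9, Sln again among the lower. With total counts alone, 12 wider calcium genes were called in iCarP+/Light+ against MI (5 higher and 7 lower), and Slc8a1 between MI and Sham did not pass. That scaling moved the median of all genes to 0.52 (MI against Sham), -0.25 (iCarP+/Light+ against MI) and 0.33 (iCarP+/Light+ against Sham), and the share of higher among called genes from 47.3%, 85.2% and 50.3% to 73.5%, 30.7% and 64.7%. With upper quartile scaling the median between iCarP+/Light+ and MI was -0.16 and the share 52.5%. At unadjusted p below 0.05, total counts alone gave 2 members and upper quartile scaling 1 in that comparison. Relative to sarcomere genes without Myh6, Trdn was called lower in MI against Sham (-0.76, edgeR adjusted p = 0.0348). Same-numbered rats did not deviate together (r from -0.15 to 0.065 in 9 pairs). With a replicate block, 9 members were called between MI and Sham, 0 between iCarP+/Light+ and MI and 9 between iCarP+/Light+ and Sham, and all calls in the middle comparison went from 2051 to 1298. Under that replicate block, Hrc relative to sarcomere genes in iCarP+/Light+ against Sham was -0.74 and did not pass (edgeR adjusted p = 0.152). The causes of these changes were not tested. The width of the intervals rests on the 4 rats per group and on a spread estimated over all 12 rats. Sham rats, which varied least, thus also enter the intervals of iCarP+/Light+ against MI.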
